A study of Canis lupus familiaris with 8 samples.

Results

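The complement genes outside C1q that were followed here encode proteases, substrates and inhibitors of the complement cascade. They were chosen by symbol, as C3, CFI, CFB, CFD, C1R, C1S, SERPING1, C7 and CD59. No rule on measured levels was used, but earlier results of these data were known when the choice was made. Of these 9 genes, 8 were measured among the 12824 genes of the table, and CFD, which encodes the protease factor D, is not analysed here. Levels are given as log2 CPM, the log2 of reads scaled to an adjusted library size. All 8 exceeded 1 CPM in each of the 8 libraries, with a lowest value of 2.46 log2 CPM.

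The libraries came from retina of wild-type male Beagle dogs aged 31 weeks, with 4 fresh-frozen and 4 paraformaldehyde (PFA)-fixed libraries prepared from total RNA. Right eyes were embedded unfixed for the fresh-frozen group. Left eyes of the PFA-fixed group were fixed for 3 h (4% PFA) and a further 24 h (2% PFA), then in 15% and 30% sucrose, before embedding. RNA was extracted with a kit for small samples (fresh-frozen) or a kit for paraffin-embedded tissue with 18 h of proteinase K (PFA-fixed), so that fixation, eye and kit cannot be told apart. The series asked how the transcriptome of fixed retina compares with that of fresh-frozen retina, and its title speaks of laser capture, although no label states that these 8 were captured. The series describes the 4 libraries of a group as biological replicates without naming the dogs, so each p-value reflects library-to-library spread.

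Complement is a cascade of blood and tissue proteins that marks surfaces for removal. The classical and lectin routes start with recognition proteins bound to proteases, the alternative route amplifies through C3 and factor B, and both lead to cleavage of C3 and to assembly of the membrane attack complex from the terminal components. Soluble and membrane-bound inhibitors keep the cascade in check on host cells, and in the outer retina and choroid the alternative route and its inhibitors are known for their genetic link to age-related macular degeneration.

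Effective depth, estimated from the spacing of low values, was 21570000 to 22810000 reads in fresh-frozen and 11030000 to 15340000 in PFA-fixed libraries. At that estimated depth the 8 genes rested on about 238 reads or more in each fresh-frozen and about 67 or more in each fixed library. GNAT1, the rod transducin gene, stood at 12.33 log2 CPM in fresh-frozen and 12.10 in fixed libraries, so both held retina. Fresh-frozen libraries also held genes of sclera, pigment epithelium and vessels at levels far above those of the fixed ones. Fresh-frozen replicate 1 stood apart in oligodendrocyte and astrocyte genes. Both facts are given below beside the complement values.

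In PFA-fixed retina, 7 of the 8 complement genes were lower than in fresh-frozen retina and none was higher (limma, adjusted p under 0.05 over all genes). Among all genes, 34.7% were called lower and 33.9% higher, 68.7% in all. The falls were unequal. C1R and SERPING1 fell more than 11-fold, C3 and C1S about 5-fold, and CFI, CD59 and C7 less than 2-fold, while CFB was not called. The median change of the 8 genes was -1.65 on the log2 scale, against -0.02 over all genes. At least 2-fold falls were called in 4 of the 8, where 13.7% of all genes had such a call. The groups did not overlap, with fixed libraries lower, in 5 of the 8, where this held for 31.6% of all genes (62.9% in either direction). In these bulk samples, fewer cells of a type and less RNA per cell cannot be told apart.

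**Figure D1:**
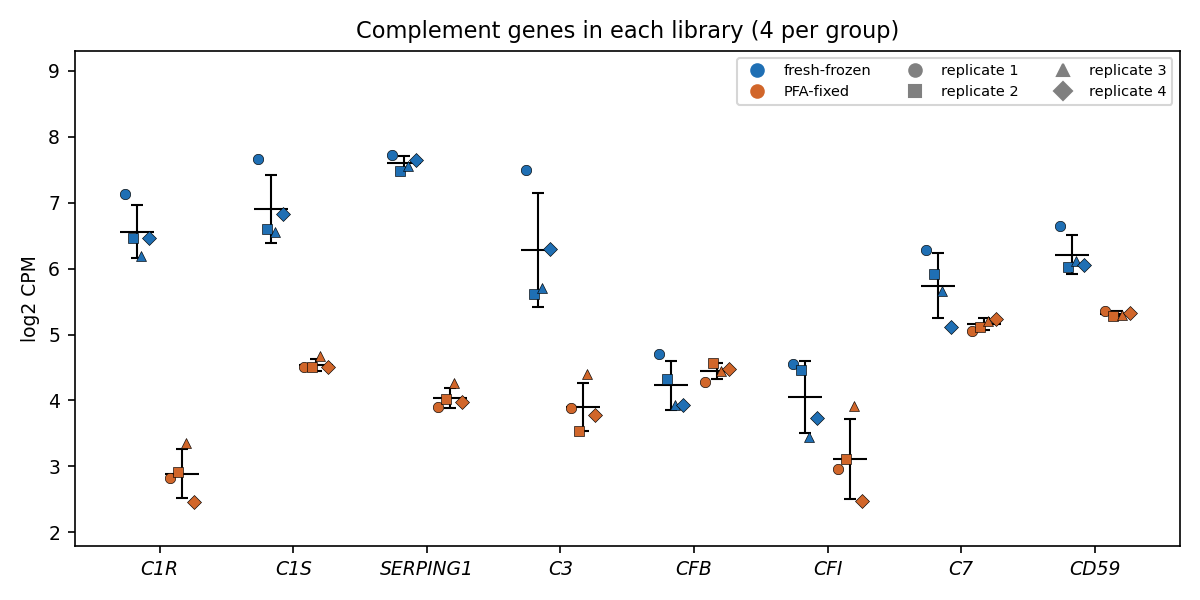
Level of each complement gene (log2 CPM, vertical axis) in every library, with blue for fresh-frozen and orange for PFA-fixed and a symbol for each replicate number; dashes and bars are the mean and SD of 4 libraries. Fixed libraries lie below all fresh-frozen ones for C1R, C1S, SERPING1, C3 and CD59, and the groups overlap for CFB, CFI and C7.

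The proteases that open the classical route come first. C1R, the protease that activates its partner within the C1 complex, was at 7.13, 6.46, 6.19 and 6.46 log2 CPM in fresh-frozen replicates 1 to 4 and at 2.83, 2.92, 3.36 and 2.46 in PFA-fixed replicates 1 to 4. Every fixed library lay more than 2 log2 units below every fresh-frozen one. C1R fell by 3.67 ± 0.21 on the log2 scale (SE, n = 4 each; limma adjusted p = 3.59e-08), a 12.7-fold fall. C1S, which C1R activates and which cleaves C4 and C2, was at 7.66, 6.60, 6.55 and 6.82 log2 CPM in fresh-frozen libraries and at 4.50, 4.50, 4.68 and 4.50 in fixed ones. The fixed libraries were nearly alike and the fresh-frozen ones were spread by replicate 1. C1S fell by 2.36 ± 0.20 (SE, n = 4 each; limma adjusted p = 8.10e-07), a 5.14-fold fall.

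SERPING1 encodes the C1 inhibitor, a serpin that removes C1R and C1S from the C1 complex. Its level was 7.72, 7.48, 7.55 and 7.65 log2 CPM in fresh-frozen libraries and 3.90, 4.02, 4.26 and 3.98 in fixed ones. Libraries within each group were close together and the gap between the groups was wide. SERPING1 fell by 3.56 ± 0.09 (SE, n = 4 each; limma adjusted p = 7.71e-11), an 11.8-fold fall and the smallest SE of the 8 genes.

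C3 is the central component, cleaved by all routes. It was at 7.50, 5.61, 5.71 and 6.29 log2 CPM in fresh-frozen libraries and at 3.89, 3.54, 4.40 and 3.78 in fixed ones. Fresh-frozen replicate 1 was the highest by more than 1 log2 unit, and even the lowest fresh-frozen library exceeded every fixed one. C3 fell by 2.38 ± 0.35 (SE, n = 4 each; limma adjusted p = 7.83e-05), or by 1.97 without fresh-frozen replicate 1 (limma adjusted p = 9.83e-06). CFB encodes factor B, which joins C3b in the alternative convertase. Its level was 4.71, 4.33, 3.93 and 3.93 log2 CPM in fresh-frozen libraries and 4.28, 4.57, 4.45 and 4.47 in fixed ones. These ranges overlapped, and the change of 0.21 was not called, with a 95% interval from -0.15 to 0.58 (limma adjusted p = 0.272). Without fresh-frozen replicate 1 it was called higher in fixed libraries (0.37, limma adjusted p = 0.0262). The sign turned when libraries were centred on the mean (-0.05) or the median (-0.44) of rod genes.

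CFI encodes factor I, the protease that inactivates C3b and C4b with the help of cofactors. It was at 4.56, 4.46, 3.44 and 3.74 log2 CPM in fresh-frozen libraries and at 2.96, 3.11, 3.92 and 2.48 in fixed ones. Fixed replicate 3 exceeded 2 fresh-frozen libraries, so the groups overlapped. CFI fell by 0.94 ± 0.31 (SE, n = 4 each; limma adjusted p = 0.0185). The call ended without fresh-frozen replicate 1 (-0.76, limma adjusted p = 0.0545), without fresh-frozen replicate 2 (-0.80, limma adjusted p = 0.0530) and without PFA-fixed replicate 4 (-0.72, limma adjusted p = 0.0515). It also ended after quantile normalization (-0.69, limma adjusted p = 0.0751).

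At the terminal end, C7, a component of the membrane attack complex, was at 6.28, 5.91, 5.66 and 5.11 log2 CPM in fresh-frozen libraries and at 5.05, 5.11, 5.21 and 5.24 in fixed ones. Fresh-frozen replicate 4 lay among the fixed libraries, which spanned only 0.19. C7 fell by 0.59 ± 0.19 (SE, n = 4 each; limma adjusted p = 0.0172). CD59, the membrane-anchored protein that blocks assembly of that complex on host cells, was at 6.65, 6.02, 6.12 and 6.05 log2 CPM in fresh-frozen libraries and at 5.36, 5.28, 5.29 and 5.33 in fixed ones. Fixed libraries lay within 0.08 of each other and below every fresh-frozen one. CD59 fell by 0.89 ± 0.12 (SE, n = 4 each; limma adjusted p = 5.19e-05), a 1.86-fold fall. The calls of C7 and CD59 ended when a change beyond 1.5-fold was required (limma adjusted p = 0.0556 for CD59).

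Because any scaling between libraries cancels in the ratio of 2 genes within a library, 5 pairs of partners were compared as log2 ratios. The ratio itself also depends on transcript length, so only its difference between groups was read. C1R lost more than C1S. The C1R to C1S ratio was -0.54, -0.14, -0.36 and -0.36 in fresh-frozen and -1.67, -1.57, -1.32 and -2.04 in fixed libraries, a difference of -1.30 ± 0.17 (SE, n = 4 each; exact permutation p = 0.0286, two-sided, adjusted p = 0.0476 over 5 pairs). This p of 0.0286 is the smallest that 70 assignments allow. The C1S to SERPING1 ratio, protease over inhibitor, rose from -0.69 ± 0.43 to 0.50 ± 0.08 (SD, n = 4 each). The difference was 1.20 (exact permutation p = 0.0286, adjusted p = 0.0476). Every fixed library lay above every fresh-frozen one, the nearest values being 0.42 (fixed replicate 3) and -0.06 (fresh-frozen replicate 1). The sign of this ratio was not read, as it also depends on transcript length.

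The CFB to CFI ratio rose from 0.18 ± 0.25 to 1.32 ± 0.60 (SD, n = 4 each), with an exact permutation p of 0.0286 (adjusted p = 0.0476). Its lowest fixed value, 0.53 in replicate 3, was close to the highest fresh-frozen value of 0.49. The C3 to CFI ratio was 2.23 ± 0.77 in fresh-frozen and 0.78 ± 0.41 in fixed libraries (SD, n = 4 each), a difference of -1.44 that did not pass (exact permutation p = 0.0571, adjusted p = 0.0714). The C7 to CD59 ratio was -0.47 ± 0.35 and -0.16 ± 0.11 (SD, n = 4 each), a difference of 0.31 ± 0.18 (SE) that did not pass (exact permutation p = 0.0857, adjusted p = 0.0857).

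**Figure D2:**
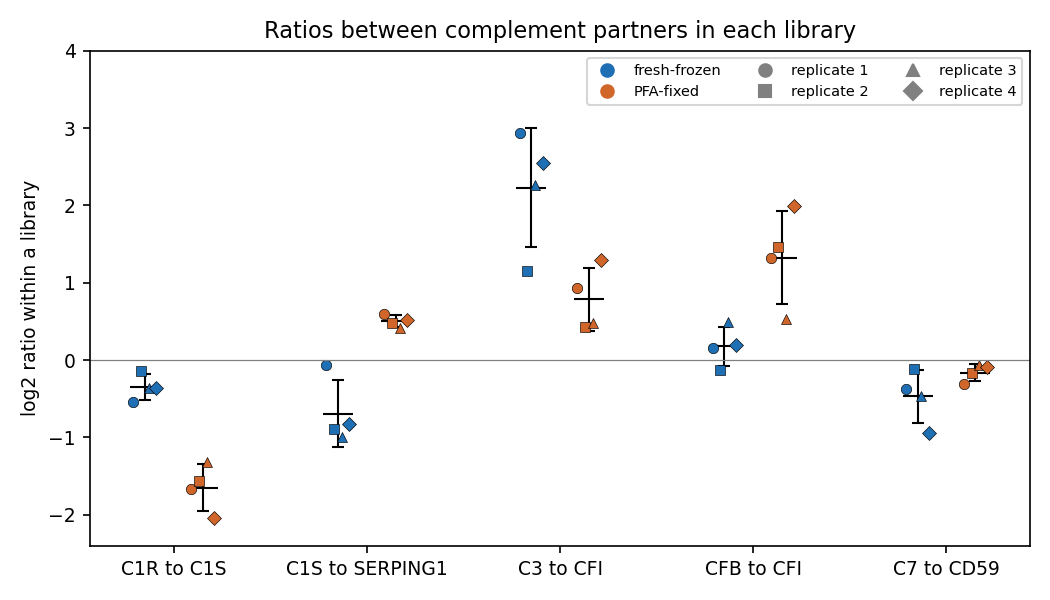
Log2 ratio of 5 pairs of complement partners (vertical axis) in each library, with blue for fresh-frozen and orange for PFA-fixed; dashes and bars are the mean and SD of 4 libraries and the grey line marks a ratio of 1. The groups are separate for C1R to C1S, C1S to SERPING1 and CFB to CFI, and overlap for C3 to CFI and C7 to CD59.

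Within the fresh-frozen group, replicate 1 was the highest library for all 8 complement genes, where it was the highest for 25.8% of all genes. Its excess over the mean of the other 3 fresh-frozen libraries was 1.63 log2 units for C3, 1.01 for C1S, 0.76 for C1R and 0.72 for C7. For SERPING1 it was 0.16. The library also stood apart in a list of 8 measured oligodendrocyte and astrocyte genes, drawn up with the values known. Their summed level was 2442 CPM there against 198 to 232 CPM in the other 3 fresh-frozen and 41.0 to 76.7 CPM in fixed libraries. GFAP, the astrocyte filament gene, was at 10.53 log2 CPM in that library and at 3.65, 6.47 and 5.85 in replicates 2 to 4. By summed level, fresh-frozen replicate 1 was also the highest of its group for endothelial, microglia and macrophage, pigment epithelium and Müller glia markers. Values there were 1486, 441, 4024 and 10230 CPM, against 1218, 366, 3723 and 9480 CPM in replicate 2, the next highest. Replicate 1 was not the highest for sclera and fibroblast, melanocyte, pericyte and smooth muscle or rod markers. The part of these glial and other cell types in the complement levels was not tested. Without that library, 6 complement genes were called lower and 1, CFB, higher.

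Fixed replicate 3 was the highest fixed library for 5 of the 8 genes, where it was the highest for 26.3% of all genes. Its excess over the other 3 fixed libraries was 1.08 log2 units for CFI, 0.66 for C3 and 0.62 for C1R, and -0.04 for CD59. The order of libraries therefore differed between complement genes in the fixed group. C1S, C7 and CD59 were nearly level across all 4, with ranges of 0.18, 0.19 and 0.08.

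**Figure D3:**
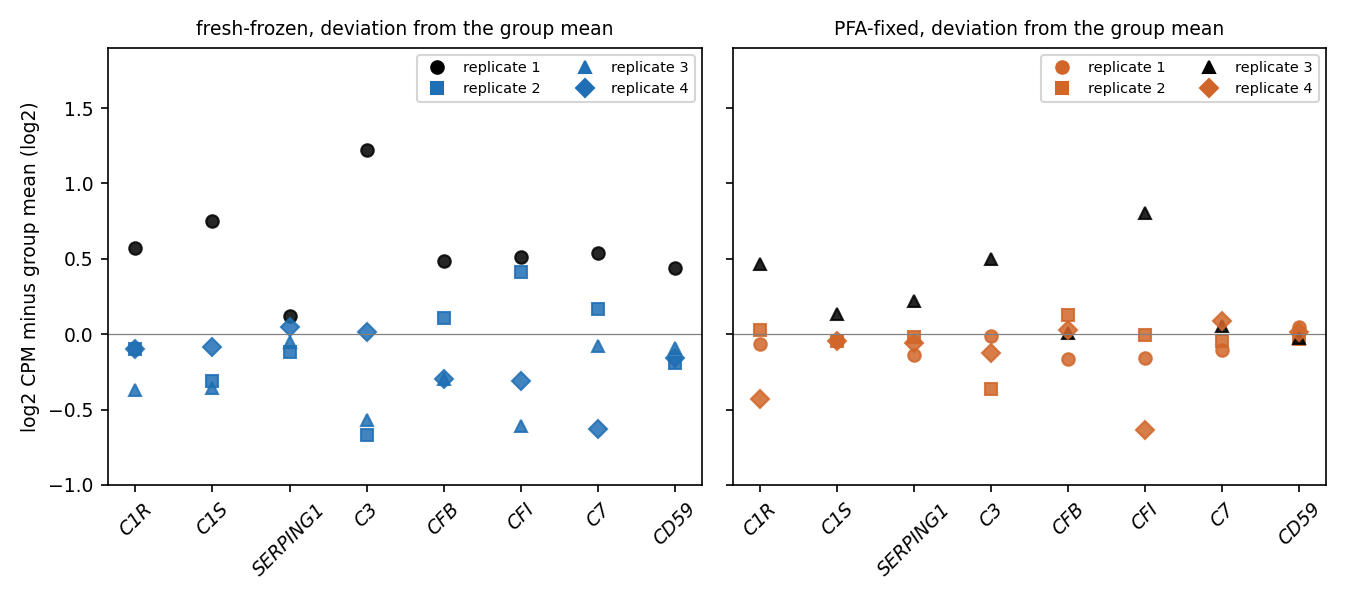
Deviation of each library from its group mean (log2, vertical axis) for the 8 complement genes, fresh-frozen on the left and PFA-fixed on the right, 1 symbol per replicate. Fresh-frozen replicate 1 and PFA-fixed replicate 3 are drawn in black; the former is the highest for all 8 genes and the latter for 5.

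Of 53 further complement genes listed by their place in the cascade, 28 were measured and the others are not analysed here. Of these 28, 12 fell and 11 rose, against 34.7% and 33.9% of all genes, with a median change of 0.19. The largest rise was 3.71 (C9). The 11 rises became 6 when libraries were centred on the mean of rod genes and 4 with their median. The further genes therefore went both ways.

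The C1q genes, which encode the recognition part of the classical route, were also lower in fixed libraries. C1QA, C1QB and C1QC, the chains of the C1q molecule, fell by 2.80, 3.01 and 3.25 (limma adjusted p at or below 2.78e-05 for each). Over the initiation genes of both routes, the described ones included, 7 of 9 fell and 2 rose, where 34.7% of all genes fell and 33.9% rose. Among these falls, COLEC11, named after its values were seen, was at -1.28 to -0.58 log2 CPM in fixed libraries. It passed the minimum of 1 CPM through fresh-frozen libraries only, so its fall was set by that filter. The genes that rose were MASP2, a protease of the lectin route, from 2.93 ± 0.27 to 4.90 ± 0.08 log2 CPM, and CRP, an acute-phase protein that binds C1q, from 0.79 ± 0.32 to 3.46 ± 0.39 (SD, n = 4 each). Both were named after their values were seen.

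Among terminal components, C7 fell while C6 and C9 rose. C5, named after its values were seen, was not called (0.96, limma adjusted p = 0.164). Its fixed libraries ran from -0.66 log2 CPM in replicate 3 to 2.62 in replicate 4, and its fresh-frozen ones from -0.04 to 1.09, within that range. C5 was called higher without PFA-fixed replicate 3 (1.63, limma adjusted p = 0.00281) and after quantile normalization (1.45, limma adjusted p = 0.0372). C9, the pore-forming subunit, was at 3.17, 3.12, 3.63 and 3.72 log2 CPM in fresh-frozen and at 7.19, 7.24, 7.08 and 6.97 in fixed libraries. All fixed libraries lay more than 3 log2 units above all fresh-frozen ones. C9 rose by 3.71 ± 0.14 (SE, n = 4 each; limma adjusted p = 1.39e-09), a 13.1-fold rise exceeded by 0.148% of all genes. C6, which binds before C7 in the complex and was named after its values were seen, rose from 2.85 ± 0.19 to 4.96 ± 0.23 log2 CPM (SD, n = 4 each).

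CLU, which encodes the soluble terminal inhibitor and chaperone clusterin, fell by 1.03 ± 0.18 (SE, n = 4 each; limma adjusted p = 0.000282), a call that ended when a change beyond 1.5-fold was required (limma adjusted p = 0.0554). Over all inhibitor genes measured, 5 of 11 fell, 3 rose and 3 were not called, where 34.7% of all genes fell and 33.9% rose.

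Of 8 receptor genes, 4 were lower, 3 higher and 1 not called, where 34.7% of all genes were lower and 33.9% higher. ITGB2, the shared chain of the leukocyte receptors for cleaved C3, fell by 3.21 ± 0.23 (SE, n = 4 each; limma adjusted p = 1.71e-07). The scavenger receptor gene COLEC12, counted with the lectins, fell by 0.52. CALR, a chaperone that also binds C1q, rose by 0.35 as deposited and was -0.30 and not called with centring on the median of rod genes.

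**Figure D4:**
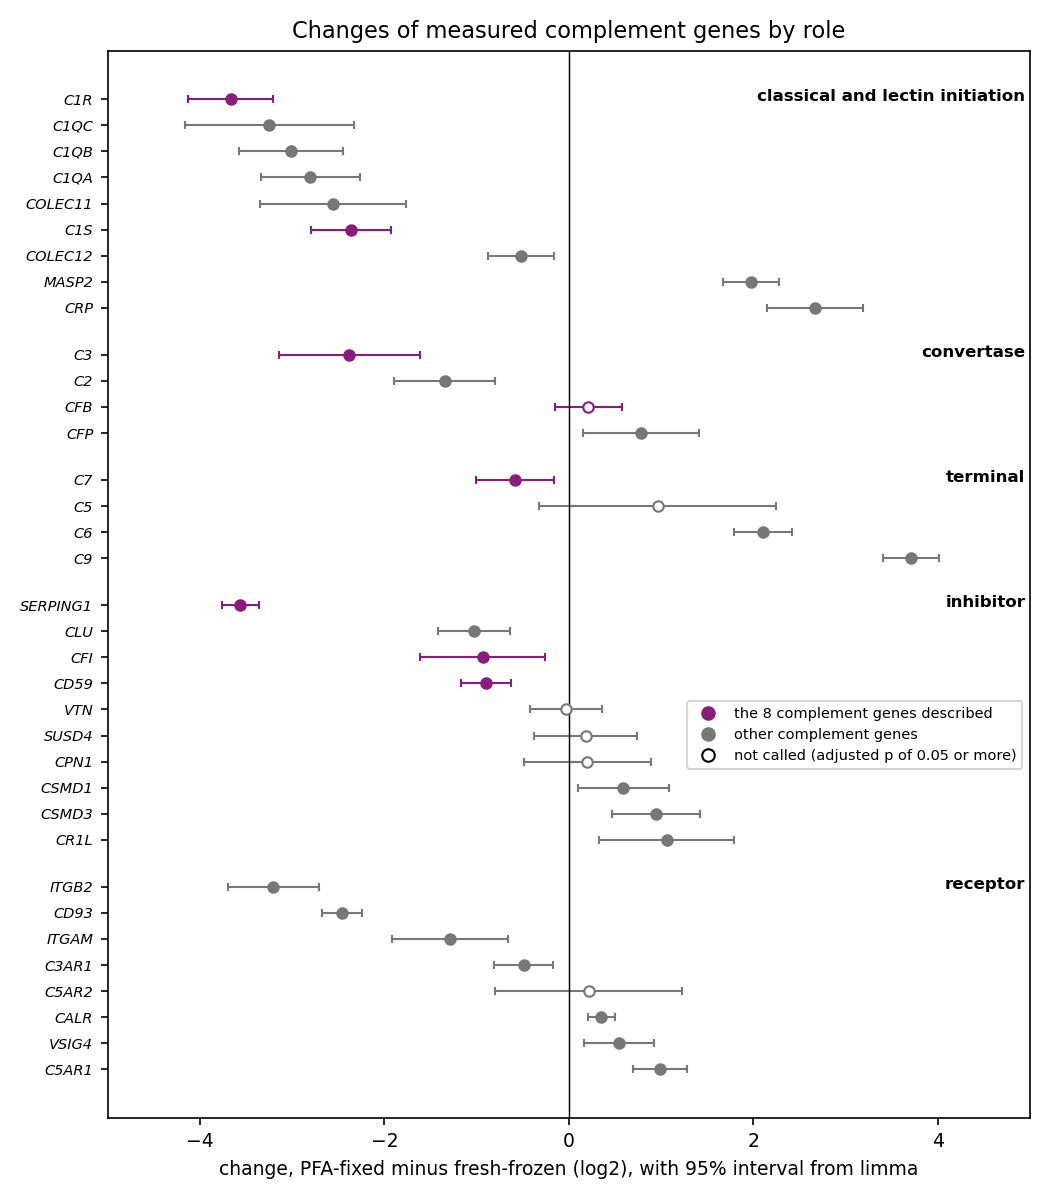
Change of each measured complement gene (log2, PFA-fixed minus fresh-frozen, horizontal axis) with its 95% interval from limma, grouped by role; purple marks the 8 genes described and grey 27 of the other 28, and open circles were not called. Of the genes drawn, C1R and SERPING1 lie farthest to the left, and C9, CRP and C6 farthest to the right.

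Marker genes of the other cell types in the eyecup moved in the same comparison, in which 34.7% of all genes fell and 33.9% rose. The lists of sclera and fibroblast, pigment epithelium and pericyte and smooth muscle genes fell in 12 of 12, 11 of 11 and 9 of 9 measured members, and those of melanocytes and endothelium in 8 of 9 and 10 of 11. Among 15 microglia and macrophage genes there were 12 falls and 1 rise, and among 14 Müller glia genes 9 falls and no rise. Of 22 rod genes, 4 fell and 10 rose. Summed levels went from 8432 to 11660 CPM in fresh-frozen to 224 to 276 CPM in fixed libraries for the sclera and fibroblast list, and from 2855 to 4024 CPM to 681 to 780 CPM for pigment epithelium. They went from 1128 to 1486 CPM to 521 to 643 CPM for endothelium, from 1585 to 2328 CPM to 354 to 433 CPM for pericytes and smooth muscle, and from 288 to 441 CPM to 75.7 to 90.7 CPM for microglia and macrophages. The Müller glia list went from 7918 to 10230 CPM to 3700 to 4978 CPM, and the melanocyte list from 1554 to 2322 CPM to 156 to 166 CPM. No listed gene was at the lowest value of the table in all fixed libraries. Some, such as LUM, DPT, CNN1, TYR, MLANA and TMEM119, named after their values were seen, passed 1 CPM in fresh-frozen libraries only. LUM, for example, was at -1.85 to -0.82 log2 CPM in fixed libraries. With the minimum of 1 CPM in 4 or more libraries, such genes could enter the table only with a fall, so their falls were set by that filter. The part of these cell types in the complement falls was not tested.

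Set against these lists within each library, the complement genes kept different distances. The mean of the endothelial list changed by -2.24, and the log2 ratio to it went from 0.48 ± 0.71 to 0.35 ± 0.31 for C3 and from 1.11 ± 0.36 to 0.99 ± 0.04 for C1S (SD, n = 4 each). For SERPING1 and C1R this ratio fell by 1.32 and 1.42. For CD59 and CFB it rose by 1.35 and 2.46. Single endothelial genes changed by -3.54 (ENG) to -0.16 (KDR), so the list mean covers a wide spread. Relative to the mean of the pigment epithelium list, which changed by -3.03, C1R and SERPING1 differed by -0.64 and -0.53, and CFB by 3.24. Relative to the sclera and fibroblast list, which changed by -6.35, all 8 were higher in fixed libraries, by 2.68 (C1R) to 6.56 (CFB). That list mean includes LUM and DPT, whose falls were set by the filter of 1 CPM.

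**Figure D5:**
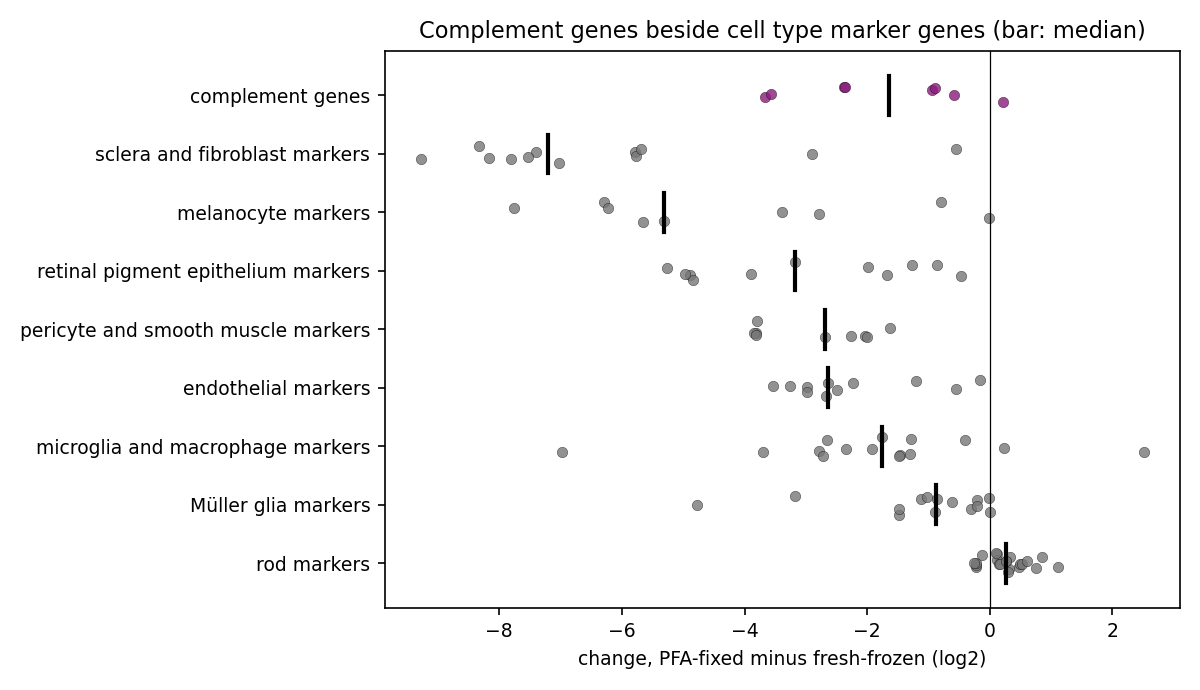
Change of each gene (log2, PFA-fixed minus fresh-frozen, horizontal axis) for the 8 complement genes in purple and for marker genes of other cell types in grey, with a black bar at the median of each list. The complement median of -1.65 lies between that of microglia and macrophage markers (-1.75) and that of Müller glia markers (-0.88).

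The genes with the most similar profiles were found as those whose log2 values, centred on their own mean over the 8 libraries, had the smallest root mean square difference. For SERPING1 these were NID1, the basement membrane gene nidogen 1 (0.15 log2 units), and ENG, the endothelial receptor endoglin (0.165). For C1R they were ASPN, the matrix proteoglycan asporin (0.202), and THBD, thrombomodulin (0.273). In fixed libraries ASPN averaged -0.35 log2 CPM, below the minimum of 1 CPM, and THBD averaged 0.566. EFHD1 was the nearest to C1S (0.0959) and the second nearest to C3 (0.332), after MUSTN1 (0.295). For CD59 they were ACOT9 (0.0675) and PODXL, the sialomucin podocalyxin (0.0698). CFI was nearest to PDLIM3 (0.23) and EFEMP1, a fibulin (0.262), CFB to WWC1 (0.114) and PLXNB1 (0.117), and C7 among others to ETNK2 (0.178). Likeness of this kind mainly follows the difference between the groups, which enters every profile.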

How the data were processed

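The deposited table holds log2 CPM, made by the authors. The tools listed in the submitters' processing notes are kallisto 0.48.0, limma and edgeR, with no role or order. The reference transcripts, strandedness and prior count were not given in the sources used here. Each gene passed 1 CPM in 4 or more libraries, and all libraries share a lowest value of -3.12 log2 CPM, worth 2.01 reads at the mean depth, so changes of low genes are understated.

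limma 3.58.1 (R 4.3.3) with an intensity trend was fitted to all 12824 genes with group as the only term and Benjamini-Hochberg adjustment, threshold 0.05. Changes are PFA-fixed minus fresh-frozen. In simulated data (12824 genes, of which 12624 were left unchanged), the step called 82% of 50 genes changed 2-fold, with 17 false calls. In the real data 68.7% of genes were called, so the 82% need not hold there. Depth came from the spacing of low values. Of values up to 20 reads, 62.7% to 69.4% were whole multiples within 0.1 of a read, so reads were not recovered. Chance gives 20% for a spacing fixed in advance, but the spacing was chosen for a high share, so the 2 cannot be compared directly.

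The members, lists and tests were chosen with earlier results of these data known. Named genes are the members, the 3 highest and 6 most changed called genes of the further complement list and of a list of inducing signals, the 2 highest markers per cell type, and the 2 nearest profiles per member. ITGAM, CLU and RLBP1 stand in 2 lists each. Some genes that the rule takes are not reported here, and no sequences are shown.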

Additional observations from a re-analysis of the deposited data

Results flagged for a closer look

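In groups of 4, a library was singled out where its distance to the nearest other library, over the range of the group, exceeded Dixon's 95% critical value, and 26 groups of values were examined. Chance gives about 1 in 20, and 2 were found. CD59 was at 6.65 log2 CPM in fresh-frozen replicate 1, against 6.02 to 6.12 in the other 3 libraries. C1S was at 4.68 log2 CPM in PFA-fixed replicate 3, against 4.50 in each of the other 3.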

How the results depend on the processing

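Of 144 values of the 8 member changes under alternatives, 134 kept direction and side of the threshold. Leaving out single libraries gave 6 to 7 members lower and 0 to 1 higher. A minimum change of 1.5-fold (chosen after seeing the data) left 4 lower members, as CFI, C7 and CD59 lost their calls. It left 5 risen further complement genes, 7 fallen and 0 risen inducing signals, and 1813 and 1530 genes lower and higher. Centring on the rod mean gave 6 risen further genes, 1 risen signal and 2612 higher genes. Centring on the rod median gave 4, 0 and 1138, with 8074 lower. These centrings moved the median of all genes to -0.28 and -0.67 and the share of rises among calls from 49.4% to 30.5% and 12.3%. A minimum mean of 3 log2 CPM tested 12 further genes, with 5 lower and 6 higher. Signs turned in genes that were not called after the turn. Under the rod mean and median these were CFB (-0.0536 and -0.436), SUSD4 (-0.0843 and -0.467), C5AR2 (-0.04999 and -0.433) and CPN1 (-0.0655 and -0.448). Under the median alone they were CSMD1 (-0.0596), VSIG4 (-0.103), CALR (-0.297), IRF2 (-0.225) and IRF9 (-0.0609). VTN turned after quantile normalization (0.243) and median centring (0.0456). Without single libraries VTN spanned -0.175 to 0.0566, SUSD4 -0.00506 to 0.349 and C5AR2 -0.132 to 0.442. Deviations of libraries with the same replicate number correlated at 0.0496, 0.149, -0.0893 and 0.224 across genes. Those with unlike numbers correlated at -0.27 to 0.219. As the dogs are not named and kits differ, these values cannot decide whether replicate numbers pair the libraries. The replicate block gave 7 members lower. For the 5 ratios its smallest exact p is 0.125, and without single libraries they spanned -1.41 to -1.17 (C1R to C1S), 1.10 to 1.41 (C1S to SERPING1), -1.80 to -1.21 (C3 to CFI), 0.926 to 1.41 (CFB to CFI) and 0.152 to 0.429 (C7 to CD59). The CFB to CFD ratio was not run.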

Other observations

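Genes of the cytokine signals known to induce complement genes were mostly lower in PFA-fixed retina. Of 27 listed genes, 20 were measured, of which 17 fell and 2 rose, with a median change of -0.45, against 34.7% and 33.9% of all genes. At least 2-fold falls were called in 7 of the 20, where 13.7% of all genes had such a call. Median centring left 13 falls, and centring on rod genes gave 18. CEBPB, a transcription factor of the acute-phase response, fell by 3.33 ± 0.23 and OSMR, the oncostatin M receptor, by 2.74 ± 0.29 (SE, n = 4 each; limma adjusted p = 1.28e-07 and 5.73e-06). IL1R1, the interleukin 1 receptor, fell by 2.45, the interferon gamma receptor chain IFNGR2 by 2.04 and the interferon-induced factor IRF1 by 1.91. IL6ST, the shared receptor chain of the interleukin 6 family, fell by 1.77, from 8.86 ± 0.19 to 7.09 ± 0.12 log2 CPM, while JAK1 and STAT3, the kinase and factor that act after it, fell by 0.77 and 0.41 (SD, n = 4 each). The genes that rose were IRF2 and IRF9, by 0.42 and 0.59, named after their values were seen, and both were negative with centring on the median of rod genes. Whether these genes moved with the complement genes in the same cells was not tested.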
